A study of Homo sapiens with 6 samples.

Results

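The genes described here are 48 genes that act in mitosis: kinases, cyclins, kinesins, checkpoint and kinetochore components, and factors that build and split the spindle. They were chosen by gene name from a written list, and all 48 were found among the 55401 gene names of the files. Their transcripts were measured by RNA sequencing of 6 libraries. The cells were RMS13, a human alveolar rhabdomyosarcoma line from ATCC, and RMS13-R, a line derived from it with acquired resistance to MAL3-101, a small-molecule inhibitor of HSP70 chaperones. The 3 groups of 2 libraries, A and B, were parental RMS13 with DMSO, the vehicle; parental RMS13 with 10 µM MAL3-101; and RMS13-R with 10 µM MAL3-101, each for 9 h in medium with serum. No untreated or DMSO-treated resistant library was analysed here, so what belongs to the resistant line and what to its response to the drug cannot be told apart. The labels do not say whether RMS13-R is 1 clone or a pool, or whether A and B came from separate cultures, so the p-values measure the spread between these libraries.

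Cells enter mitosis when CDK1, bound to cyclin B, is switched on. Polo-like and Aurora kinases then build the spindle, kinetochores attach chromosomes to it, and a checkpoint holds back the anaphase-promoting complex until all are attached. Transcripts of most of these genes are made in the second part of the cell cycle, under MuvB complexes with B-Myb and FOXM1, and are held down in resting cells by the DREAM complex, which shares the MuvB core. Much of that control runs through short promoter elements, the cell cycle genes homology region (CHR) and CCAAT boxes. RNA from whole cultures cannot tell fewer cells in mitosis from less RNA per cell.

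Most of the promoters available held the letters of a CHR, of a CCAAT box or of both. RefSeq's promoter table on GRCh38.p14, used for sequence alone, held 250 bases before and 50 after the start for 41 of the 48 genes; AURKA, TTK, BUB3, UBE2C, BIRC5, TPX2 and FOXM1 had no entry. The CHR was searched as TTTGAA or TTCGAA, the CCAAT box as CCAAT and the E2F site as TTCCCGC or TTGGCGC, all on both strands, and a base may belong to more than 1 match. A CHR match stood in 32 of 41 promoters, or 78.0%, against 11.1% of the 9644 promoters of genes tested here and 16.6% of all 27305. A CCAAT match stood in 33 of 41, or 80.5%, against 37.3% and 35.7%. Both occurred together in 27 of 41, or 65.9%, against 4.74% and 6.58%. E2F letters were in 7 of 41, or 17.1%, close to the 14.7% of tested genes. These matches are descriptions of letters in a window, and no binding was measured.

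**Figure D1:**
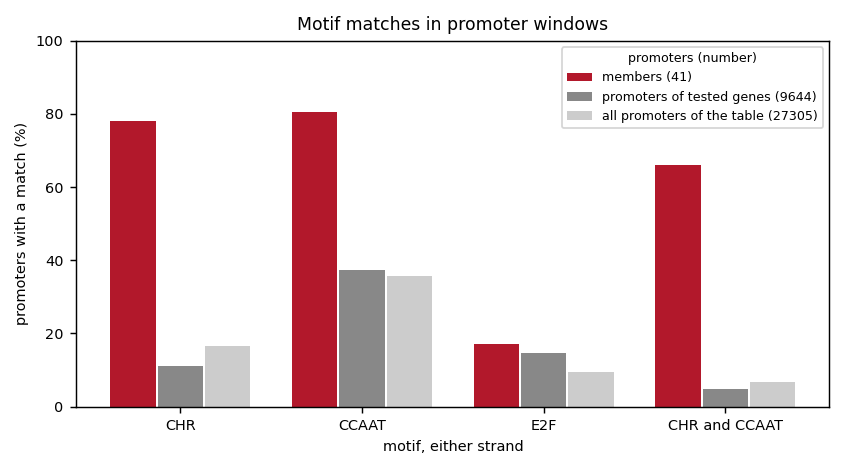
Percentage of promoter windows (y axis, from 0 to 100%) with a match to each motif (x axis), for 41 mitotic genes, 9644 tested genes and all 27305 entries of the table. The mitotic genes stand at 78.0% for CHR and 80.5% for CCAAT, and at 17.1% for E2F, near the 14.7% of tested genes.

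The upstream 250 bases of 5 promoters are printed 5′ to 3′, with every CHR and CCAAT match in capitals. BUB1B, CCNB1 and KIF22 are shown because they were called in all 3 comparisons, and SPC24 and HMMR because they had the largest positive and negative difference between resistant and parental cells with the drug. BUB1B has a CHR alone, KIF22 has 1 of each, and HMMR has 2 CHR matches in a row and 5 CCAAT matches. CCNB1 and SPC24 have CCAAT matches and no CHR match in this window.
BUB1B (chr15:40160819-40161068, plus strand): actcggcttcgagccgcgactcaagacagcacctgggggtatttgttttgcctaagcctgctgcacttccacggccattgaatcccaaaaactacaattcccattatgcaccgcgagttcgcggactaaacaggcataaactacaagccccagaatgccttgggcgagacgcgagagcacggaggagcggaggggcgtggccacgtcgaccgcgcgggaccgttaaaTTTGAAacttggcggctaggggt
CCNB1 (chr5:69166900-69167149, plus strand): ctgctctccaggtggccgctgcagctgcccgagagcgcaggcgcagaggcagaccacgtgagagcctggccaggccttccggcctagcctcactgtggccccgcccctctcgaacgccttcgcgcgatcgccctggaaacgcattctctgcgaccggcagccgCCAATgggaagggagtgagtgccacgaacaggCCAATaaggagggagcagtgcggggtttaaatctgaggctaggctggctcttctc
KIF22 (chr16:29790501-29790750, plus strand): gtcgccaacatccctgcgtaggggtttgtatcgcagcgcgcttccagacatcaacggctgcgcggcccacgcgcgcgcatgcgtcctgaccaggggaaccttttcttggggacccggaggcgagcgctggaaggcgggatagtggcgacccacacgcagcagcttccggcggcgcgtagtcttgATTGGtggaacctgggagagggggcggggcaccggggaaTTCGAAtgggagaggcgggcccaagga
SPC24 (chr19:11155783-11156032, minus strand): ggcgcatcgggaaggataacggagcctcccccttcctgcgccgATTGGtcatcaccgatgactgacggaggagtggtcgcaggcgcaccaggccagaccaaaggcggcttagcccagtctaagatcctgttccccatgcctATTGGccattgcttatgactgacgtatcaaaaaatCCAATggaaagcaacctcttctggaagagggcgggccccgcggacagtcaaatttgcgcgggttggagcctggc
HMMR (chr5:163460382-163460631, plus strand): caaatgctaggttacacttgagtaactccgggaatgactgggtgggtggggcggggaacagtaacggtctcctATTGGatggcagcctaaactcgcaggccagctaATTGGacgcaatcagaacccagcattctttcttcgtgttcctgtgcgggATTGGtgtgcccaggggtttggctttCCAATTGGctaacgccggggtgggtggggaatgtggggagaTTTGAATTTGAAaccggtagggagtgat

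Genes with and without the CHR letters had like medians but unlike shares of calls. Only 9 had no match, and the part of these letters in the differences was not tested. Genes with no promoter entry, AURKA and FOXM1 among them, are left out here. In parental cells the 32 genes with a match had a median log2 difference of -0.12 for MAL3-101 against DMSO and the 9 without one of -0.19. Between resistant and parental cells with the drug the medians were 0.20 and 0.27. Calls were 14 higher and 6 lower among the 32 and 7 higher and 1 lower among the 9. Of all tested genes, 21.3% were higher and 34.8% lower in that comparison. Genes with like promoter content also differed in opposite directions. KIF23, with 1 CHR and 1 CCAAT match, was higher in resistant cells by 0.49 (SE 0.04), and KIF4A, with 1 of each, lower by a log2 value of -0.35 (SE 0.08).

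Levels are in TPM, a unit scaled for transcript length and library total, which can be compared between genes but keeps no read depth. All 48 genes were well above the limit for testing, a mean of 1 TPM in some group. Their means ran from 10.1 TPM for KIF14 to 533 TPM for UBE2C with DMSO, with a median of 94.975 TPM. With MAL3-101 the median was 84.7 TPM in parental and 93.4 TPM in resistant cells. Added up, the 48 genes came to 5452 and 5056 TPM with DMSO in A and B, to 4580 and 4662 TPM in parental cells with the drug, and to 5718 and 5626 TPM in resistant cells. The parental drug libraries were the lowest pair and the resistant libraries the highest, with no overlap between groups.

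Of the library-wide facts, replicates correlated at r = 0.990 to 0.996 across genes. MYOD1 at 484 to 816 TPM, MYOG at 320 to 688 TPM and DES at 318 to 479 TPM were high in all libraries, while MYF5 was listed at 0 and MYF6 and PAX7 at 0.09 TPM or less. CHRNA1 stood at 285 to 337 TPM in parental cells and 52.1 and 49.9 TPM in resistant ones. The sum of 10 muscle markers was 2270 to 2410 TPM with DMSO, 2211 to 2213 TPM in parental cells with the drug and 2149 to 2173 TPM in resistant cells. Among 6 blood and 3 endothelial markers LYZ alone reached 1 TPM, PTPRC stayed at or below 0.06 TPM, and of 4 neural markers RBFOX3 alone reached 1 TPM. Of 6 epithelial markers 3 reached 1 TPM; their sum was 28.6 to 29.3 TPM in parental cells with the drug, 12.4 to 16.4 TPM with DMSO and 0.95 to 1.34 TPM in resistant cells, with KRT5 at 0 in all, and their part in the differences below was not tested. Transcripts of mitochondrial ribosomal RNA took 0.533% and 0.565% of each DMSO library, 1.92% and 1.97% of each parental drug library and 0.784% and 0.767% of each resistant one. With TPM recomputed without mitochondrial genes the calls among the 48 were 3 higher and 21 lower, 27 and 7, and 18 and 11 in the 3 comparisons described next.

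The changes were many and small. In parental cells, MAL3-101 against DMSO gave 3 of 48 genes higher, 19 lower and 26 not past an adjusted p of 0.05 by limma, where 40.8% of all 15148 tested genes were called, 22.6% higher and 18.2% lower. The median log2 fold change was -0.15, against 0.02 over all tested genes. Resistant against parental cells, both with the drug, had 27 genes up, 7 down and 14 uncalled, with 56.1% of tested genes called, 21.3% higher and 34.8% lower, and a median of 0.24 against -0.10. Resistant cells with the drug against parental cells with DMSO had 18 up, 11 down and 19 uncalled, with 50.6% of tested genes called, 20.9% higher and 29.7% lower, and a median of 0.05 against -0.06. These comparisons share libraries, so their counts are not independent. No member was called at 2-fold or more in any of them, where 2.81% of tested genes were called that far up and 0.68% down in the first comparison, 3.14% and 7.57% in the second, and 3.7% and 5.25% in the third. By group mean, parental cells with the drug were the lowest group for 29 of 48 genes, or 60.4%, against 27.9% of all tested genes, and resistant cells the highest for 25, or 52.1%, against 30.2%. Upper-quartile scaling moved the median of all genes in the resistant against parental comparison up by 0.106, and median-ratio scaling made its calls over all genes 4220 higher and 4362 lower in place of 3228 and 5267; among the 48 the calls then were 32 higher and 5 lower under either scaling.

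**Figure D2:**
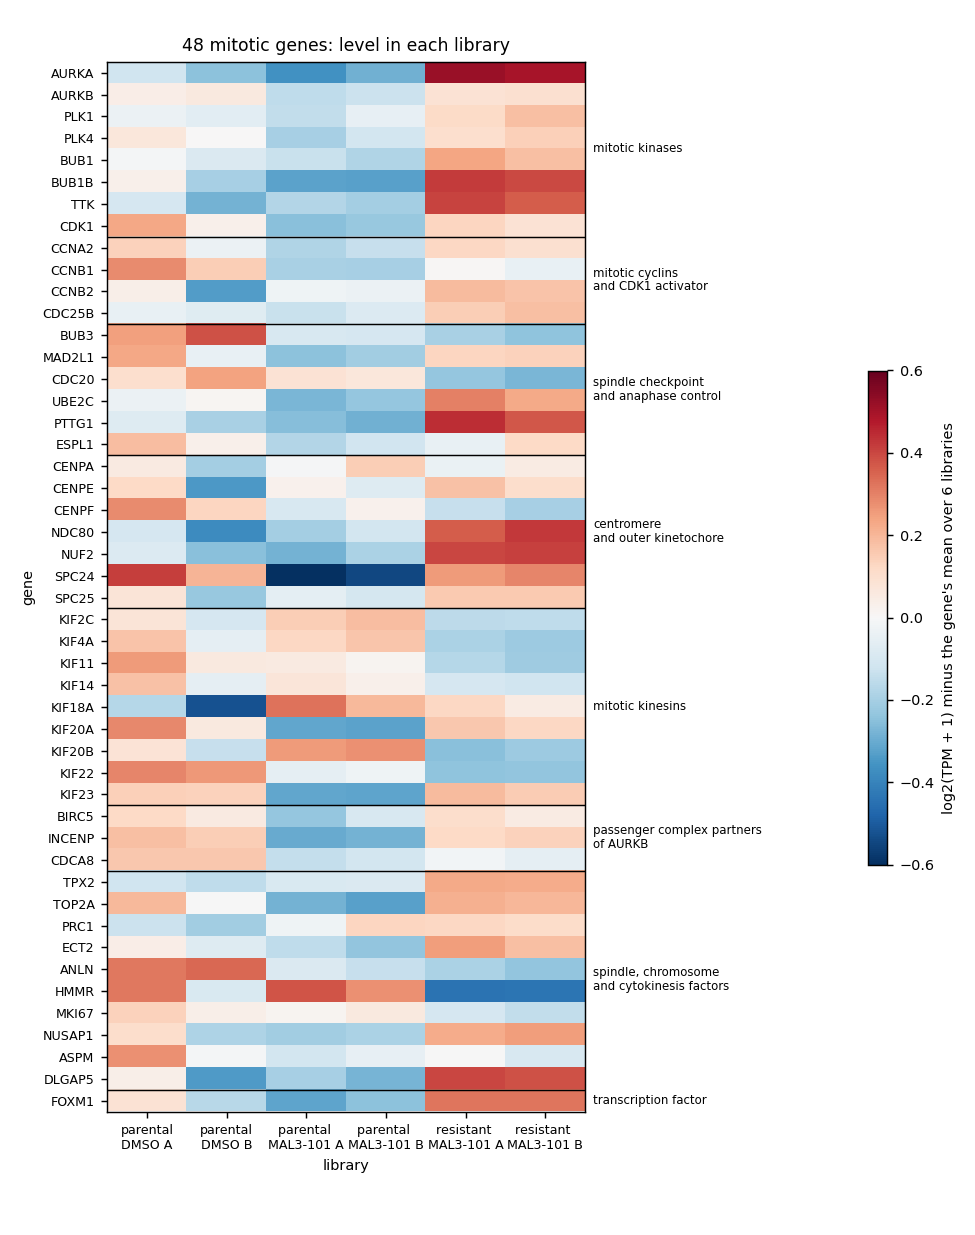
Level of 48 mitotic genes (y axis, grouped by role) in 6 libraries (x axis), as log2(TPM + 1) minus the gene's mean over the 6 libraries, red above and blue below it, with the colour scale ending at 0.6. Both resistant libraries are red for the 8 kinases and for FOXM1 and blue for most kinesins, and AURKA passes from 148 and 156 TPM in parental drug libraries to 274 and 269 TPM in resistant ones.

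The DMSO pair spread more than the others, and in 1 direction. Library A lay above library B for 43 of 48 genes, with a median gap of 0.17 on the log2(TPM + 1) scale, against 59.4% of all tested genes and a median of 0.05. CENPE was farthest apart, at 32.2 TPM in A and 23.1 TPM in B. In the parental drug pair A was above B for 20 of 48 and in the resistant pair for 31, and the median gap without its sign was 0.04 in each. Most of the 48 genes thus stood lower in 1 of the 2 vehicle libraries, and the values against DMSO depended on which library was used. Without DMSO library A the median difference of the 48 genes was -0.08 in parental drug cells and 0.13 in resistant cells, and without B it was -0.22 and -0.01. The resistant median thus changed sign. A fit with 1 DMSO library takes its spread from the drug-treated pairs alone, with their median gaps of 0.04 against 0.17. Its calls against DMSO are thus too readily made, so values alone are read here. The median over all tested genes was 0.06 and -0.04 without A and -0.003 and -0.09 without B. Without DMSO library A, most values of MAL3-101 against DMSO in parental cells were higher than with both vehicle libraries. These included CCNB2 (0.31), CENPE (0.32), HMMR (0.42), CENPA (0.27), KIF2C (0.27), NDC80 (0.22), KIF4A (0.20) and SPC25 (0.14), while CDC20 (-0.16) was lower. Without DMSO library B most values were lower. Among these were AURKA (-0.21), PLK4 (-0.23), BUB1 (-0.15), PTTG1 (-0.19), ESPL1 (-0.33), SPC25 (-0.16), KIF11 (-0.22), ECT2 (-0.23), NUSAP1 (-0.30), ASPM (-0.36) and DLGAP5 (-0.27). SPC25 thus had opposite signs against each vehicle library alone, and its value against both was -0.01 (SE 0.10). Some called genes kept their sign against each vehicle library alone, but with at least 1 of these values over 1.5 times apart from the joint one. With the drug in parental cells these were BUB1B (-0.12 without A and -0.36 without B), CCNA2 (-0.12 and -0.30), MAD2L1 (-0.18 and -0.46), KIF20B (0.41 and 0.19) and FOXM1 (-0.12 and -0.37). In resistant cells against DMSO they were CCNB2 (0.52 and 0.15), DLGAP5 (0.73 and 0.36), FOXM1 (0.49 and 0.23), HMMR (-0.35 and -0.76), KIF18A (0.61 and 0.26), KIF4A (-0.15 and -0.37) and NUSAP1 (0.42 and 0.13).

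Scaling ended or made calls. Under median-ratio and upper-quartile scaling, respectively, the lower calls of KIF11 (-0.12 and -0.11) and KIF22 (-0.09 and -0.08) against parental drug cells were lost, and so were those of KIF4A (-0.19 and -0.20), CDCA8 (-0.12 and -0.13) and MKI67 (-0.14 and -0.15) in resistant cells against DMSO. The rise of PRC1 was lost under upper-quartile scaling (0.16). Under both scalings, AURKA (-0.18 and -0.20), PLK4 (-0.22 and -0.25), PTTG1 (-0.17 and -0.19), ESPL1 (-0.29 and -0.31) and ECT2 (-0.21 and -0.23) were called lower with the drug in parental cells, as was BUB1 (-0.17) under the latter. CCNB2 (0.32 and 0.33), ESPL1 (0.29 and 0.31), SPC25 (0.35 and 0.36), CDCA8 (0.20 and 0.21) and PRC1 (0.17 and 0.19) were then called higher in resistant than in parental drug cells, and SPC25 (0.31 and 0.30) and TOP2A (0.18 and 0.17) higher than with DMSO. PLK4 and ESPL1 were also called lower with the drug in TPM without mitochondrial genes and with a filter at 5 TPM, and MKI67 lower in resistant than in parental drug cells with that filter. Without a filter, with only the libraries compared or without the trend, BUB1B, CCNA2, MAD2L1, CENPF, KIF20B, PRC1 and FOXM1 lost their calls with the drug in parental cells. AURKB and BIRC5 lost theirs without the trend. Under the same 3 settings CCNB2, KIF4A, ECT2 and NUSAP1 lost their calls in resistant cells against DMSO. KIF18A lost its call there without a filter, and PLK1, CCNB1 and MKI67 without the trend. CCNB1 and KIF11 lost theirs against parental drug cells without a filter or without the trend.

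**Figure D3:**
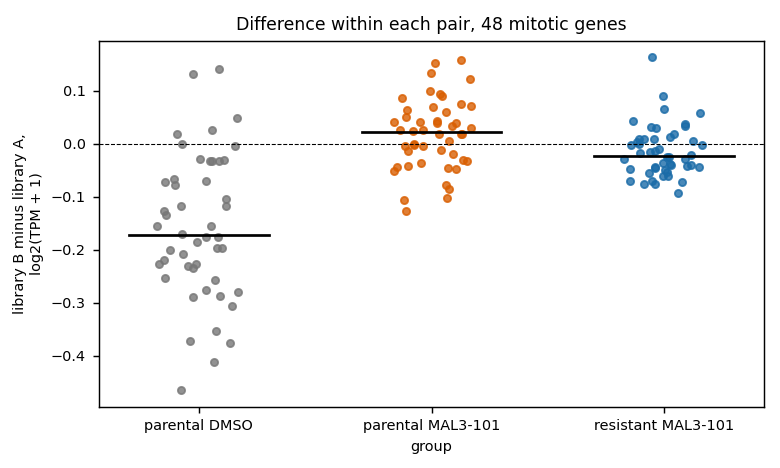
Difference between the 2 libraries of each group (y axis, library B minus library A in log2(TPM + 1)), 1 point per mitotic gene, with the median as a black line. In the DMSO group 43 of 48 points lie below 0, with a median of -0.17, while the other groups centre near 0.

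All 8 mitotic kinases were higher in resistant than in parental cells with the drug (median 0.36), beside 21.3% of all tested genes. Against DMSO 5 of 8, or 62.5%, were higher and 0 lower, beside 20.9% and 29.7% of all tested genes. AURKA, which matures centrosomes and builds the spindle, stood at 176 and 161 TPM with DMSO, 148 and 156 TPM in parental cells with MAL3-101, and 274 and 269 TPM in resistant cells. The resistant pair lay above all 4 parental libraries. On the log2 scale it was higher by 0.83 (SE 0.06, adjusted p = 3.7e-05) than in parental drug cells and by 0.69 (SE 0.06, adjusted p = 9.5e-05) than with DMSO, 1.78-fold and 1.61-fold on the TPM + 1 scale. BUB1B, the checkpoint protein BubR1, stood at 77.1 and 65.4 TPM with DMSO, 60.1 and 59.99 TPM with the drug, and 101 and 99.4 TPM in resistant cells, where it was higher by 0.73 (SE 0.08) than in parental cells with the drug. TTK, the kinase MPS1 that starts checkpoint signalling, stood at 34.8 and 30.5, 33.0 and 32.3, and 49.8 and 48.3 TPM in the same order. Its difference of 0.57 (SE 0.08) was the same against either parental group, and MAL3-101 against DMSO gave 0.00 (95% interval -0.18 to 0.18) in parental cells.

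AURKB, the kinase of the chromosomal passenger complex, had nearly flat pairs, at 148 and 149 TPM with DMSO, 129 and 131 TPM in parental cells with the drug and 153 and 154 TPM in resistant cells. It fell by 0.19 (SE 0.04) with the drug and was higher in resistant cells by 0.23 (SE 0.04). CDK1, the engine of mitotic entry, stood at 150 and 130, 107 and 109, and 140 and 135 TPM: it fell by 0.37 (SE 0.07, adjusted p = 0.0055) in parental cells, and resistant cells lay within the DMSO pair (-0.02, SE 0.07). BUB1, which recruits checkpoint proteins to kinetochores, stood at 61.6 and 58.6, 56.5 and 54.7, and 73.5 and 70.5 TPM, higher in resistant cells by 0.37 (SE 0.06) than with the drug in parental cells. PLK1, the polo kinase of mitotic entry and exit, stood at 86.1 and 84.3, 79.5 and 85.3, and 95.7 and 100 TPM, so that its 2 parental groups overlapped and the resistant pair was above both. PLK4, which starts centriole duplication, was higher in resistant than in parental drug cells by 0.28 (SE 0.06). Some calls were lost with a library left out. The fall of AURKB was lost without parental MAL3-101 A (-0.18) or B (-0.20). That of BUB1B was lost without either parental drug library or either resistant library, at nearly the same value (-0.24). The resistant libraries have no part in that value, so the loss of the BUB1B call does not show that it rested on any of these libraries. The higher calls of PLK1 and PLK4 against parental drug cells were lost without parental MAL3-101 A (0.20 and 0.23) or resistant B (0.21 and 0.25), and those against DMSO of PLK1 without resistant A (0.23) or B (0.17) and of BUB1 without resistant A (0.23). Without DMSO library B, CDK1 in resistant cells stood at -0.12 against DMSO.

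**Figure D4:**
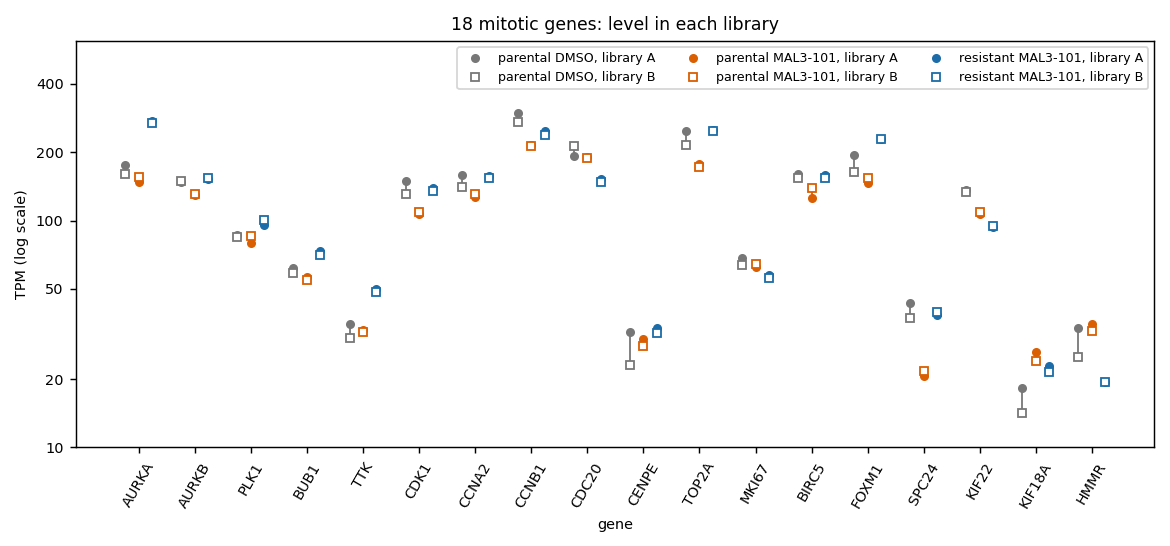
Levels of 18 mitotic genes (x axis) in TPM on a log scale (y axis), with circles for library A and squares for library B of each group, joined by a line. Resistant pairs lie above all parental libraries for AURKA, TTK, BUB1 and FOXM1 and below them for CDC20, KIF22 and HMMR, and the parental drug pair lies below all others for SPC24.

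Among the cyclins and their activator, CCNB1, cyclin B1, is the partner that carries CDK1 into mitosis. It stood at 299 and 272 TPM with DMSO, 215 and 214 TPM in parental cells with MAL3-101 and 247 and 238 TPM in resistant cells, 3 pairs without overlap. The fall in parental cells was -0.41 on the log2 scale (SE 0.06, adjusted p = 0.0015); resistant cells were higher than those by 0.18 (SE 0.06) and lower than DMSO by a log2 value of -0.23 (SE 0.06). CCNA2, cyclin A2, which acts in S phase and early mitosis, stood at 158 and 140, 127 and 130, and 157 and 154 TPM. It fell by 0.21 (SE 0.06) and was higher in resistant cells by 0.27 (SE 0.06). CCNB2, the second B cyclin, stood at 138 and 107, 133 and 132, and 154 and 152 TPM, and with its wide DMSO pair passed the test only for resistant cells against DMSO (0.33, SE 0.11). CDC25B, a phosphatase that activates CDK1, was higher in resistant cells by 0.27 (SE 0.05) and 0.22 (SE 0.05) than in parental cells with drug and vehicle, and the difference with the drug in parental cells was -0.05 (SE 0.05). The fall of CCNA2 was lost without parental MAL3-101 A (-0.19) or B (-0.23) or either resistant library (-0.21), and its higher call without parental MAL3-101 A (0.25) or resistant A (0.26). The higher call of CCNB1 was lost without any one of the 4 drug-treated libraries (0.15 to 0.21), and its lower call against DMSO without resistant B (-0.21). CCNB2 lost its call without any one of those 4 libraries (0.32 to 0.34), and ranged from 0.15 to 0.52 with either DMSO library left out. Its value against parental drug cells was 0.21 with or without either DMSO library. CCNA2 stood at 0.15 against DMSO without DMSO library A, and CDC25B lost its call against DMSO without resistant B (0.21).

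The 6 genes of the spindle checkpoint and anaphase split in resistant cells, with 3 higher, 1 lower and 2 not called against parental drug cells. The called shares were 50% higher and 16.7% lower, beside 21.3% and 34.8% of all tested genes. PTTG1, securin, which holds separase inactive until anaphase, stood at 237 and 219 TPM with DMSO, 210 and 205 TPM with the drug and 340 and 324 TPM in resistant cells, higher by 0.68 (SE 0.05, adjusted p = 7e-05) than in parental drug cells. UBE2C, the ubiquitin-conjugating enzyme of the anaphase-promoting complex and the most abundant of the 48, stood at 524 and 543, 445 and 457, and 663 and 629 TPM. It fell by 0.24 (SE 0.05) with the drug and was higher in resistant cells by 0.52 (SE 0.05) and 0.28 (SE 0.05) than in parental drug and DMSO cells. CDC20, the activator of the same complex and the target of the checkpoint, went the other way, at 192 and 212, 191 and 188, and 153 and 148 TPM. Resistant cells lay below all parental libraries, with log2 fold changes of -0.33 (SE 0.06) and -0.42 (SE 0.06), while the drug in parental cells gave -0.09 (95% interval -0.23 to 0.04).

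BUB3, which docks checkpoint kinases at kinetochores, stood at 148 and 162 TPM with DMSO, 116 and 116 TPM with the drug and 108 and 105 TPM in resistant cells. It was thus low in both drug-treated groups, by -0.41 (SE 0.06) in parental and -0.53 (SE 0.06) in resistant cells against DMSO. MAD2L1, the checkpoint protein that binds CDC20, stood at 160 and 132, 115 and 118, and 149 and 150 TPM; it fell by 0.32 (SE 0.08) and was higher in resistant cells by 0.36 (SE 0.08). ESPL1, separase, which cuts cohesin, did not pass in any comparison on the deposited scale, with values of -0.25, 0.18 and -0.07 (SE 0.09), but passed in the first 2 under both other scalings. The fall of UBE2C was lost without parental MAL3-101 A (-0.22), that of MAD2L1 without A (-0.30) or B (-0.34) or either resistant library (-0.32), and the higher call of MAD2L1 without parental MAL3-101 A (0.35) or resistant A (0.37) or B (0.36). Without either DMSO library, the differences between resistant and parental drug cells of BUB3 (-0.12) and ESPL1 (0.18) passed, but at unchanged values. MAD2L1 in resistant cells stood at 0.18 against DMSO without DMSO library A.

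At the kinetochore, the 4 subunits of the NDC80 complex, which grips microtubule ends, had unlike patterns. SPC24 had the largest change of all 48 with MAL3-101: it stood at 43.1 and 37.2 TPM with DMSO, 20.6 and 21.7 TPM in parental cells with the drug, and 38.5 and 39.6 TPM in resistant cells. The fall was -0.89 on the log2 scale (SE 0.08, adjusted p = 3.8e-04), resistant cells were higher by 0.85 (SE 0.08), and resistant cells and DMSO differed by -0.04 (95% interval -0.23 to 0.16). Its partner SPC25 stood at 49.2 and 39.6, 44.6 and 43.2, and 52.1 and 52.0 TPM and passed in no comparison. NDC80 stood at 65.7 and 53.9, 61.1 and 65.1, and 91.0 and 94.8 TPM, and NUF2, its coiled-coil partner, at 45.6 and 40.4, 39.5 and 42.3, and 64.1 and 64.6 TPM. The parental groups overlapped for both and the resistant pair was above them, by 0.55 (SE 0.09) and 0.64 (SE 0.07) against drug and 0.63 (SE 0.09) and 0.57 (SE 0.07) against DMSO.

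CENPA, the histone that marks centromeres, stood at 52.0 and 43.3, 49.8 and 55.7, and 48.7 and 51.9 TPM, with all 3 pairs overlapping. CENPE, a kinetochore motor, also overlapped throughout between DMSO (32.2 and 23.1 TPM) and the drug-treated groups (30.1 and 28.0, 33.5 and 31.8 TPM). CENPF, a large kinetochore protein, stood at 110 and 99.1, 84.6 and 92.2, and 82.1 and 78.7 TPM and was lower than with DMSO by log2 values of -0.24 (SE 0.07) in parental and -0.38 (SE 0.07) in resistant cells. The former was lost without parental MAL3-101 A (-0.18) or B (-0.30), either resistant library (-0.24) or DMSO library A (-0.16). Without either DMSO library, resistant against parental drug cells passed for CENPE (0.16), CENPF (-0.13) and SPC25 (0.24), but at unchanged values. Without DMSO library A, resistant cells against DMSO stood at 0.49 for CENPE and 0.39 for SPC25.

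Of 9 kinesin motors, 2 were higher and 5 lower in resistant than in parental cells with the drug, with a median of -0.20. These were 22.2% and 55.6%, beside 21.3% and 34.8% of all tested genes, so that the higher share was at the background. The higher pair, KIF20A and KIF23, are motors of the central spindle that serve cytokinesis. KIF20A stood at 73.5 and 62.5 TPM with DMSO, 48.2 and 47.8 TPM with MAL3-101 and 67.3 and 65.6 TPM in resistant cells, and KIF23 at 120 and 120, 87.1 and 87.0, and 124 and 121 TPM. Both fell in parental cells, by 0.49 (SE 0.08) and 0.46 (SE 0.04, adjusted p = 4.5e-04), and were higher in resistant cells by 0.46 (SE 0.08) and 0.49 (SE 0.04). Against DMSO the resistant values were -0.03 (95% interval -0.21 to 0.16) and 0.03 (95% interval -0.08 to 0.13).

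KIF22, a chromosome arm motor, was lower in each drug-treated group than with DMSO, at 136 and 133, 107 and 109, and 93.6 and 94.2 TPM, with no overlap between groups and a resistant minus DMSO value of -0.52 (SE 0.04, adjusted p = 1.2e-04) in resistant cells against DMSO. KIF20B, another motor of cytokinesis, was highest with the drug in parental cells, at 24.2 and 20.7, 27.5 and 27.9, and 19.0 and 19.5 TPM, and was lower in resistant cells by a log2 value of -0.50 (SE 0.09). KIF18A, which dampens chromosome movements at the metaphase plate, rose by 0.61 (SE 0.12) in parental cells, the largest rise among the 48, from 18.3 and 14.2 TPM to 26.3 and 23.96 TPM, and stood at 22.8 and 21.6 TPM in resistant cells. KIF2C, a microtubule depolymerase at centromeres, stood at 116 and 103, 122 and 126, and 98.8 and 99.1 TPM, and KIF4A, a chromokinesin, at 61.9 and 52.7, 59.9 and 61.7, and 47.9 and 47.0 TPM. Both were lower in resistant than in parental drug cells, by log2 values of -0.32 (SE 0.06) and -0.35 (SE 0.08), as was KIF11, the motor that pushes spindle poles apart (-0.23, SE 0.08); the calls of KIF11 and KIF22 in that comparison were lost under both other scalings. KIF14, at 8.72 to 10.9 TPM, passed in none.

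Several kinesin calls were lost with 1 library left out, some at nearly unchanged values. The rise of KIF18A was lost without parental MAL3-101 A (0.54), and that of KIF20B without any one of the 4 drug-treated libraries (0.29 to 0.31). In resistant against parental drug cells, KIF4A was lost without parental MAL3-101 B (-0.33) or resistant B (-0.34), KIF22 without parental MAL3-101 B (-0.19) or either resistant library (-0.20 and -0.21), and KIF11 without any one of the 4 (-0.25 to -0.21). Against DMSO, KIF18A was lost without either resistant library (0.40 and 0.47; 0.26 and 0.61 without a DMSO library), KIF4A without any one of the 4 (-0.28 to -0.25; -0.37 and -0.15 without a DMSO library) and KIF11 without resistant B (-0.33). Without DMSO library B, resistant values against DMSO were -0.23 for KIF2C, -0.28 for KIF14, -0.14 for KIF20A and -0.31 for KIF20B. KIF4B, a near-identical copy of KIF4A elsewhere in the genome, was listed at 0.04 TPM or less, and PTTG2, a copy of PTTG1, at 0. Where counting ignores strand, reads of overlapping genes cannot be told apart. Exons of other genes on the opposite strand overlap KIF4A, KIF20A and KIF18A, given here in the order DMSO, parental drug and resistant. PDZD11, over KIF4A, stood at 76.7 and 74.9, 65.3 and 70.6, and 46.2 and 48.7 TPM. Over KIF20A lie BRD8, at 94.7 and 89.8, 70.9 and 76.2, and 54.5 and 56.9 TPM, and CDC23, at 63.7 and 58.4, 57.6 and 58.9, and 40.0 and 40.1 TPM. METTL15, over KIF18A, stood at 7.08 and 7.74, 10.3 and 10.2, and 7.35 and 6.75 TPM. It was thus highest in parental drug cells, as KIF18A was. In resistant cells METTL15 was near its DMSO level, where KIF18A was above it. PDZD11 was thus low in resistant cells as KIF4A was. BRD8 and KIF20A were both higher with DMSO than in parental drug cells. In resistant cells BRD8 was below DMSO, while KIF20A lay within its DMSO pair. Both BRD8 and CDC23 were lower in resistant than in parental drug cells, where KIF20A was higher. The part of such reads was not tested. Likewise EXOSC9, at 91.6 to 109 TPM, overlaps CCNA2, and SLC35F6, at 22.9 to 39.3 TPM, overlaps CENPA on its own strand.

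In the passenger complex, BIRC5, INCENP and CDCA8, which encode survivin, INCENP and borealin and place AURKB on chromosomes and the midzone, all fell with the drug in parental cells. INCENP stood at 75.6 and 73.9 TPM with DMSO, 53.8 and 54.5 TPM with the drug and 72.3 and 73.3 TPM in resistant cells: a fall of 0.46 (SE 0.05, adjusted p = 6.4e-04) and a resistant level above parental drug cells by 0.42 (SE 0.05) and at -0.04 (95% interval -0.15 to 0.08) against DMSO. BIRC5 stood at 161 and 154, 126 and 139, and 159 and 153 TPM, falling by 0.25 (SE 0.06), with a resistant difference of 0.24 (SE 0.06). CDCA8 stood at 107 and 106, 86.1 and 88.0, and 93.9 and 91.4 TPM; it fell by 0.29 (SE 0.05), and its resistant level was below DMSO by a log2 value of -0.20 (SE 0.05), a call lost under both other scalings. The fall of BIRC5 was lost without parental MAL3-101 A (-0.18), its higher call without parental MAL3-101 A (0.17) or resistant A (0.21), and the lower call of CDCA8 against DMSO without resistant A (-0.22) or B (-0.18).

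**Figure D5:**
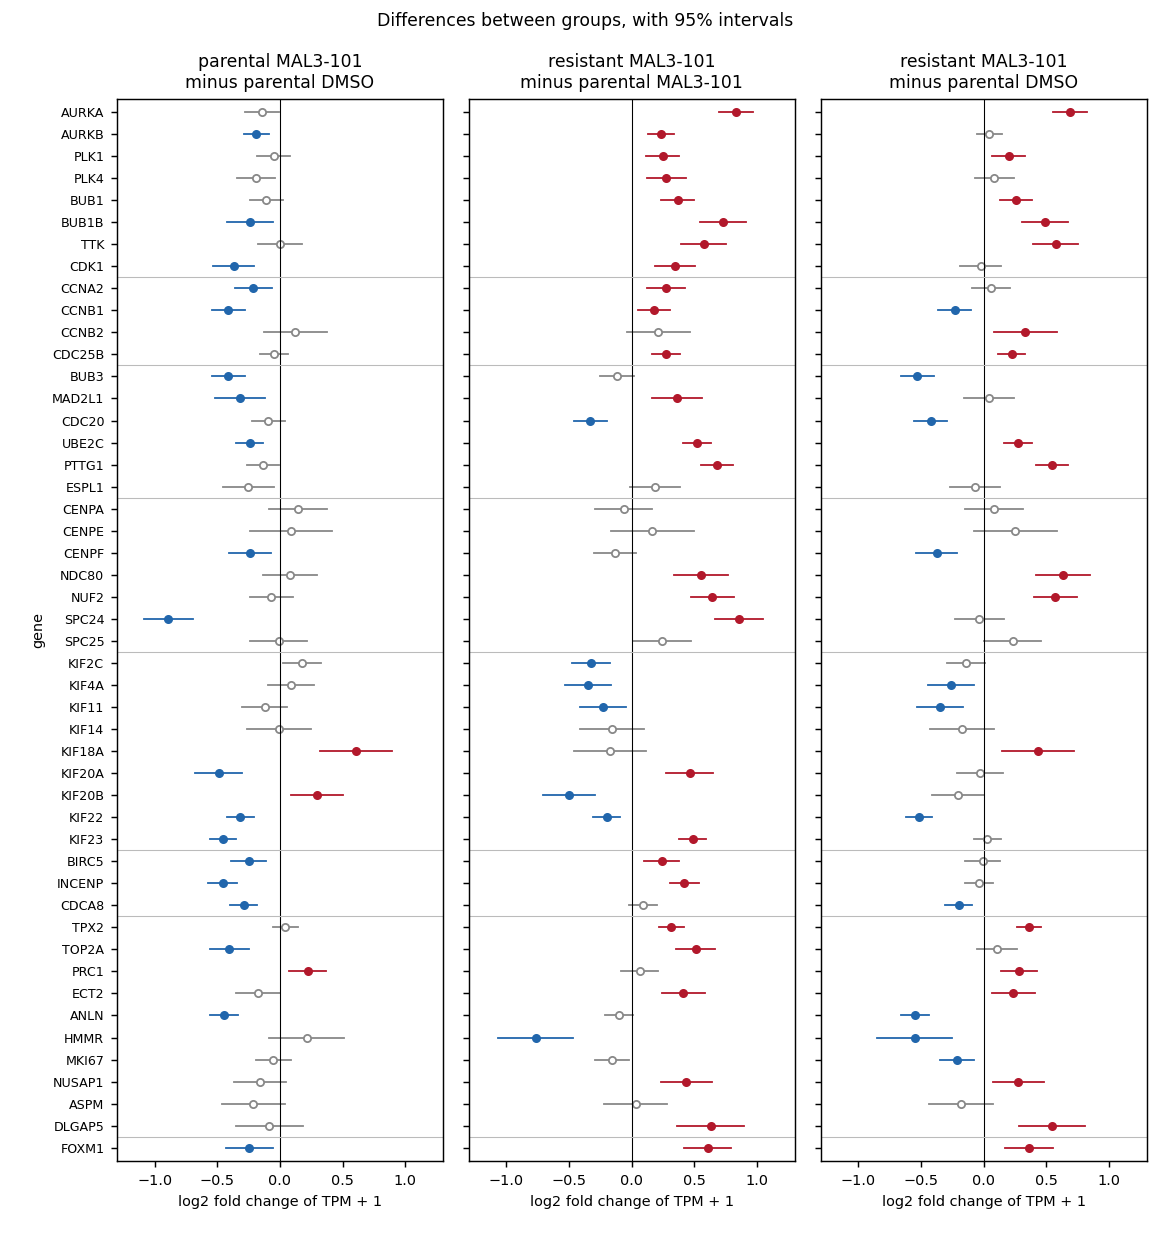
Log2 fold change of TPM + 1 (x axis) of each of 48 genes (y axis, grouped by role as in the map of levels by library) in 3 comparisons, with 95% intervals; filled red points were called higher, filled blue ones lower and open ones not called at an adjusted p of 0.05. The first panel has 3 red and 19 blue points, the second 27 and 7, with all 8 kinases red at the top, and the third 18 and 11.

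Of 10 spindle, chromosome and cytokinesis factors, 5 were higher and 1 lower in resistant than in parental drug cells. These were 50% and 10%, beside 21.3% and 34.8% of all tested genes. TOP2A, the topoisomerase that untangles sister chromatids, stood at 248 and 216 TPM with DMSO, 177 and 172 TPM in parental cells with the drug and 250 and 249 TPM in resistant cells. It fell by 0.40 (SE 0.07, adjusted p = 0.0034) and was higher in resistant cells by 0.51 (SE 0.07). ANLN, anillin, a scaffold of the contractile ring, stood at 144.27 and 146.96, 109 and 105, and 101 and 97.9 TPM, low in both drug-treated groups by log2 values of -0.44 (SE 0.05) and -0.55 (SE 0.05). HMMR, a spindle assembly factor and hyaluronan receptor, had the most negative of the 48 differences between resistant and parental drug cells, at 33.55 and 24.99, 35.0 and 32.6, and 19.4 and 19.5 TPM, with a log2 value of -0.77 (SE 0.13, adjusted p = 0.0019) against parental drug cells. MKI67, which encodes the proliferation marker Ki-67, was nearly level, at 68.4 and 63.6, 62.6 and 64.5, and 57.8 and 55.9 TPM: the drug in parental cells gave -0.05 (95% interval -0.19 to 0.09), and resistant cells stood below DMSO by -0.21 (SE 0.06), a call lost under both other scalings.

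DLGAP5, which stabilises spindle fibres, stood at 55.1 and 42.2, 46.7 and 44.2, and 71.2 and 70.4 TPM and was higher in resistant cells by 0.63 (SE 0.11) and 0.54 (SE 0.11) than in parental drug and DMSO cells. TPX2, the activator of AURKA, was also above both, by 0.32 (SE 0.04) and 0.36 (SE 0.04), as were NUSAP1, a microtubule bundler, by 0.43 and 0.28 (SE 0.09), and ECT2, an exchange factor that starts the cleavage furrow, by 0.41 and 0.24 (SE 0.07). PRC1, which bundles the midzone, rose with the drug by 0.22 (SE 0.06), from 135 and 128 TPM to 146 and 162 TPM, and stood at 161 and 160 TPM in resistant cells. ASPM, a spindle pole protein at 17.6 to 23.3 TPM, passed in no comparison. Lost with 1 library left out were the rise of PRC1, without parental MAL3-101 B (0.15) or either resistant library (0.22), and these calls of resistant cells against DMSO: PRC1 (0.28 and 0.29), HMMR (-0.55 and -0.55) and MKI67 (-0.23 and -0.19) without resistant A or B, NUSAP1 without any one of the 4 drug-treated libraries (0.26 to 0.29, and 0.13 to 0.42 with a DMSO library left out), and ECT2 without those or DMSO library B (0.18 to 0.27). Without either DMSO library ANLN (-0.10) and MKI67 (-0.16) passed between resistant and parental drug cells, but at unchanged values. Against DMSO, resistant TOP2A stood at 0.21 without DMSO library A and ASPM at -0.33 without B.

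FOXM1, the forkhead factor that drives transcription of many of these genes, stood at 194 and 163 TPM with DMSO, 146 and 154 TPM in parental cells with the drug and 228 and 229 TPM in resistant cells. The resistant pair lay above all parental libraries, by 0.60 (SE 0.08, adjusted p = 6.7e-04) and 0.36 (SE 0.08, adjusted p = 0.0084). The fall in parental cells was -0.24 (SE 0.08, adjusted p = 0.046) and was lost without either parental drug library (-0.21 and -0.28) and without either resistant library (-0.24); without 1 DMSO library it was -0.12 or -0.37. The difference from DMSO was lost without resistant A (0.36) or B (0.36). ITFG2 overlaps FOXM1 on the other strand. It stood at 38.6 and 40.8 TPM with DMSO, 45.8 and 46.8 TPM in parental drug cells and 49.7 and 54.0 TPM in resistant cells. It was thus highest in resistant cells, as FOXM1 was, but lowest with DMSO, where FOXM1 was not. The part of its reads was not tested.

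Other genes of mitosis, from 7 written lists of 162 names, 161 of them tested, gave 23 higher and 48 lower with the drug in parental cells (median -0.07). These were 14.3% and 29.8%, beside 22.6% and 18.2% of all tested genes. Resistant against parental drug cells gave 44 higher and 43 lower (median 0.03), or 27.3% and 26.7%. Resistant cells against DMSO gave 29 and 50 (median -0.05). These were 18% and 31.1%, near the 20.9% and 29.7% of all tested genes. The shares of each list called in resistant against parental drug cells stand beside 21.3% higher and 34.8% lower over all tested genes. Among further kinases and phosphatases, 7 of 23, or 30.4%, were higher and 6, or 26.1%, lower. CDC25A, a phosphatase that activates cyclin-dependent kinases, was lower by -1.14 (SE 0.07) on the log2 scale and PLK3, a stress-responsive polo kinase, by -1.49 (SE 0.09), while WEE1, the kinase that holds CDK1 inactive, fell with the drug (-0.62, SE 0.09) and was higher in resistant cells (0.69, SE 0.09). In cohesin and condensin, with 6 higher and 6 lower of 23, or 26.1% each, NCAPD2, a condensin subunit, was higher by 1.09 (SE 0.06). In the anaphase-promoting complex, with 3 higher and 8 lower of 17, or 17.6% and 47.1%, ANAPC10, a substrate-binding subunit, rose with the drug (0.77, SE 0.08) and was lower in resistant cells (-0.58, SE 0.08).

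Other kinetochore genes gave 7 higher and 8 lower of 33 between resistant and parental drug cells, 21.2% and 24.2%, so that the higher share was at the background, with BOD1, a kinetochore regulator, at -1.14 (SE 0.05) and MIS12, of the outer kinetochore, at -0.68 (SE 0.08). Other spindle and cytokinesis genes gave 16 higher and 3 lower of 33, or 48.5% and 9.09%, with CDCA3, which triggers mitotic entry, at 1.03 (SE 0.05) and KIF18B, a kinesin, at 0.50 (SE 0.06). Centriole genes gave 2 higher and 7 lower of 14, or 14.3% and 50%. CEP152, a scaffold that recruits PLK4, was among the higher genes, at 0.58 (SE 0.07), and the most negative value of the list was -0.78. MuvB, MYB and E2F regulators gave 3 higher and 5 lower of 18, or 16.7% and 27.8%, with LIN37, a MuvB subunit, at -1.09 (SE 0.11). LIN37 had a mean of 13.0 TPM with DMSO, 26.4 TPM in parental drug cells and 11.9 TPM in resistant cells. The resistant means of MIS12 and LIN37 were thus near those with DMSO. For comparison, 46 replication genes gave 2 higher and 30 lower with the drug in parental cells (median -0.28). These were 4.35% and 65.2%, beside 22.6% and 18.2% of all tested genes. They gave 11 and 11 in resistant against parental drug cells (median 0.06), or 23.9% each, beside 21.3% and 34.8%. In resistant cells against DMSO they gave 2 and 26 (median -0.28), or 4.35% and 56.5%, beside 20.9% and 29.7%. Beside these, the 48 mitotic genes had 3 and 19, 27 and 7, and 18 and 11. PCNA, the replication clamp, was below DMSO in both drug-treated groups, by log2 values of -0.82 (SE 0.08) and -0.62 (SE 0.08). CDC25A is counted both among the further kinases and phosphatases and among the replication genes. The lists are set side by side as counts, and no difference between them was tested.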

How the data were processed

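Per the submitters' processing notes, the authors used RSEM, DESeq and the genome build hg19; versions, aligner, annotation, strand setting: not given in the sources used here. Per the labels' protocols, total RNA gave paired-end TruSeq libraries. The deposited values are TPM, 1 table for each library, totalling 1000000, so read depth and counting error are unknown. Groups came from titles and descriptions; titles of the vehicle libraries name both DMSO and MAL3-101, and their descriptions, with DMSO alone, were followed, so every value against DMSO rests on them. Testing covered the 15148 genes whose mean reached 1 TPM in some group, as log2(TPM + 1), which understates changes of low genes, with limma 3.58.1 in R 4.3.3: group means over all 6 libraries, mean-variance trend, 3 residual and 4.17 prior degrees of freedom. P-values were adjusted by Benjamini-Hochberg over all tested genes of a comparison and called under 0.05; intervals are 95%. The code was tested on simulated libraries.

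The 48 genes, the other lists and the tests were chosen with earlier results of these data known. Per-library values are given for 14 core genes and the up to 5 largest called rises and falls of each comparison; of other lists, up to 4 called genes of largest change could be named. Promoters came from RefSeq on GRCh38.p14 and exon overlaps from GENCODE release 29; 1 overlapping gene is not reported here. The alternatives numbered 17: 2 scalings, TPM without mitochondrial genes, pseudocounts of 0.1 and 0.5, no filter or 5 TPM, only the libraries compared, a replicate block, a fold threshold of 1.5, no trend, and each of 6 libraries left out. Figures were drawn with matplotlib 3.10.9.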

Additional observations from a re-analysis of the deposited data

How the results depend on the processing

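Leaving out each library in turn, the members called with MAL3-101 in parental cells ranged from 1 to 11 higher and 11 to 30 lower; in resistant against parental drug cells from 21 to 31 higher and 4 to 11 lower; and in resistant cells against DMSO from 10 to 23 higher and 5 to 17 lower. With 1 library in a group, it was assumed to vary like the others. Of the calls, 0 of 3 higher and 11 of 19 lower in the first comparison, 21 of 27 and 4 of 7 in the second, and 9 of 18 and 5 of 11 in the third held without any library. SPC25, at -0.01 with MAL3-101 in parental cells, stood at 0.14 without DMSO library A and at -0.16 without B. Leaving out a DMSO library left the values between resistant and parental drug cells unchanged, with a median of 0.24. Calls gained there thus came from the shared spread, which no longer held the wide DMSO pair. The causes of the other changes were not tested.

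Against a fold of 1.5, a stricter question by construction, 0 higher and 0 lower members remained called in the first comparison, 1 and 0 in the second, AURKA, and 0 and 0 in the third. Higher calls in the first comparison were 1 without a filter, 1 with only the libraries compared and 1 without the trend, where the lower calls were 12; with only the libraries compared, 12 were lower in the second. The cause was not tested. Over all members, comparisons and settings other than that fold, 2071 of 2304 kept their side of the threshold.

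A replicate block left the calls at 3 and 18, 27 and 7, and 18 and 11, with FOXM1 the 1 member call lost. The letters pair nothing that the labels name, and deviations of same-lettered libraries correlated at -0.02, 0.03 and -0.02. TPM keeps no depth, so the limit that depth sets is unknown.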
